A study of Mus musculus with 4 samples.

Results

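The circular RNAs (circRNAs) compared here are those of the frontal infarct core of the mouse brain, set against sham cortex, in 2 pooled RNA-seq libraries. Of the 23980 circRNAs in the deposited count table, 4152 had 10 or more counts over the 2 libraries and were taken as members, with no choice by their ratio. At the edge of that rule, 402 members had exactly 10 counts and 463 circRNAs just outside had 9. The study has 4 libraries. The core frontal library is brain tissue of the infarct core near the frontal lobe, taken at 3 h of permanent occlusion of the middle cerebral artery (MCAO), a stroke model made with a filament pushed into the vessel. Its RNA was pooled from 6 mice before the library was made. The sham library is cortex from sham-operated mice, matched in position to core and penumbra. The sources used here give neither the number of sham mice nor their time of sampling, neither the strain, sex nor age of any mice, and not whether the core tissue held cortex alone. The remaining libraries, core occipital and penumbra, come from MCAO mice at the same time and are cited only for context. Both tissues were perfused and their ribosomal RNA was removed. With 1 library a group there is no replicate error, and every difference is between 2 libraries, not 2 conditions.

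A circRNA forms when the spliceosome joins the end of an exon back to the start of the same or an earlier exon, so the RNA has no free ends and resists the exonucleases that degrade linear RNA. Reads across this back-splice junction identify it. Brain, and neurons in particular, are rich in circRNAs, many from genes of synapses, ion channels, chromatin and the ubiquitin system. A host gene often gives several circles that share an exon end, and they compete with each other and with linear splicing for the same splice sites. A circle is therefore named here by its host and by the first and last exon that it joins, counted along the host's transcript.

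The junctions of a few circles show what was counted, and why circles of the same host can be told apart. Each line gives the last 25 bases of the last exon in lower case and the first 25 bases of the first exon in capitals, 5′ to 3′, from GENCODE M21 transcripts on GRCm38. The capitals begin exactly at the back-splice. The first pair, from Ambra1 on the plus strand of chromosome 2, shares exon 12 as its last exon (chr2:91824460-91825352 and chr2:91805024-91825352), and the second pair, from Rps6kc1 on the minus strand of chromosome 1, shares exon 6 (chr1:190871592-190888764 and chr1:190871592-190899571). The first of each pair was lower in core frontal by the rule given below and its partner was not. The third pair comes from Ppp1r9a on the plus strand of chromosome 6 and shares exon 12 (chr6:5113601-5115480 and chr6:5100432-5115480). The circles of Grip1 (chr10:120035351-120038793, plus strand) and of Eed (chr7:89972231-89977049, minus strand) are shown as a higher and a lower circle.
Ambra1 exons 11 to 12: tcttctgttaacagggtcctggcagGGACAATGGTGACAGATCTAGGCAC
Ambra1 exons 9 to 12: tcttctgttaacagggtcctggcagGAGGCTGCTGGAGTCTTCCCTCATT
Rps6kc1 exons 4 to 6: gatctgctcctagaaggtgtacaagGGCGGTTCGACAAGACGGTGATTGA
Rps6kc1 exons 3 to 6: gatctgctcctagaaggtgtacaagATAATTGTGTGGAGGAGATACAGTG
Ppp1r9a exons 10 to 12: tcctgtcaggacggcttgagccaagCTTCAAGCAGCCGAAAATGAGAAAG
Ppp1r9a exons 8 to 12: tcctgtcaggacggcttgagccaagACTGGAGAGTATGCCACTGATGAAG
Grip1 exons 17 to 19: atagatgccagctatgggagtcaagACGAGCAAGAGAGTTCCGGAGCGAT
Eed exons 2 to 3: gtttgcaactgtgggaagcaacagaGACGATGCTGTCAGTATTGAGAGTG

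The core frontal library held 121393 circRNA counts and the sham library 106558. Of the circRNAs in the table, 16611 were detected in core frontal and 16226 in sham, and 11449 in both. The members held 75.8% of the counts in either library, with a median of 19 counts over the pair, and 4105 of them were assigned to 2027 host genes. Counts scaled to the library's circRNA total, as CPM, were compared as a ratio, core frontal over sham, with a 95% exact interval in square brackets that covers counting error only. Without molecular identifiers, reads are not independent molecules. A circle was called where Fisher's exact test (two-sided, Benjamini-Hochberg adjusted over all members) gave an adjusted p under 0.05 and the ratio was at least 2 or at most 0.5. Where a library had 0 counts, 3 counts were put in their place. The fold at this floor is not a bound, since the limit of the interval can be smaller.

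The core frontal and sham libraries had similar levels of the most abundant circles, and for most others the counts could not show whether levels were similar. The median ratio was 1.02, a log2 ratio of 0.03. Of the 287 members with 100 or more counts, 241 (84.0%) had an interval that lay wholly between 0.5 and 2, and their ratios ran between 0.464 and 2.37. Over all members only 422 (10.2%) had such an interval, while 627 had a ratio of 2 or more and 473 a ratio of 0.5 or less. Among the 2118 members with 10 to 19 counts the middle 80% of ratios ran between 0.376 and 3.07, and none of their intervals was that narrow. Of all members, 12 circles (0.289%) were called higher in core frontal and 19 (0.458%) lower, 0.747% in either direction, and 589 (14.2%) had an unadjusted p under 0.05. By the interval alone, with a ratio of at least 2 or at most 0.5, there were 214 higher (5.15%) and 193 lower (4.65%), 9.8% together. With DESeq2 size factors in place of the totals the split was 10 higher and 26 lower. The calls assume that libraries of the same tissue differ by counting error alone. With an assumed coefficient of variation of 0.1 between libraries, edgeR's exact test called 0 higher and 2 lower (398 at an unadjusted p under 0.05), the circles of Ccdc30 and Ambra1. Above 100 counts, the squared deviations from equal CPM averaged 3.12 times the binomial variance. In bulk tissue, fewer cells of a type and less RNA per cell cannot be told apart.

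**Figure D1:**
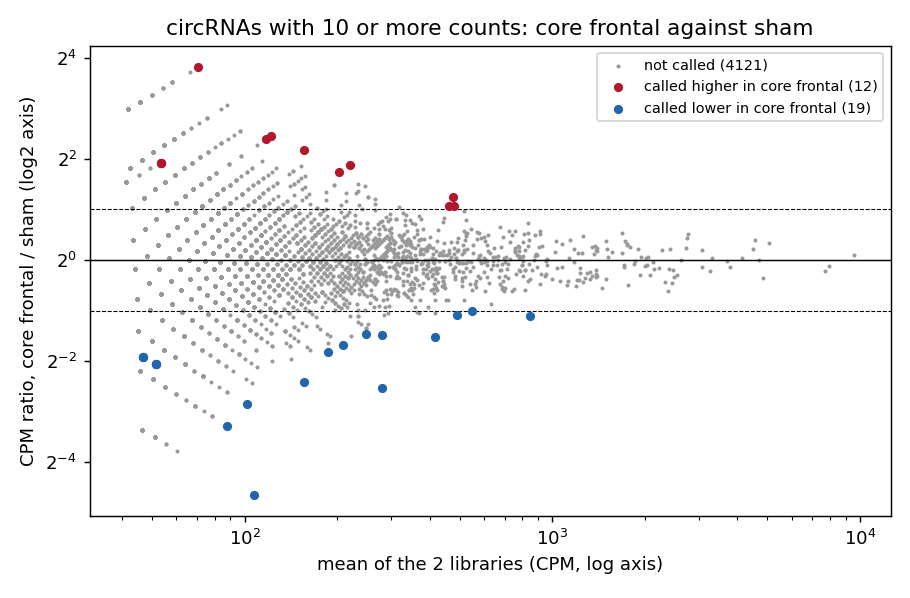
The mean CPM of the 2 libraries (log axis) against the CPM ratio, core frontal over sham (log2 axis), for the 4152 members, each point a circRNA; dashed lines mark ratios of 2 and 0.5. The 12 circles called higher and 19 called lower lie on the edge of a cloud that narrows as the count grows, and circles with the same counts share a point.

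Of the higher circles, those of Grip1 and Ppp1r9a belong to the postsynaptic list, in which 2 of 111 members were called higher and 1 lower, and those of Epb41l3, Epb41l1 and Fryl to the actin and membrane skeleton list, with 3 of 58 higher and 0 lower. Over all members 0.289% were called higher and 0.458% lower, 0.747% in either direction. The Fryl circle had 0 counts in sham and passed the minimum of 10 counts only through core frontal, so its call is no result. Epb41l3 and Epb41l1 encode protein 4.1 relatives that tie the spectrin-actin skeleton to membrane proteins. Exons 2 to 3 of Epb41l3 had 81 counts (667 CPM) in core frontal and 30 (282 CPM) in sham, a ratio of 2.37 [1.54–3.73] (Fisher's exact test, adjusted p = 0.0124). Exons 11 to 15 of Epb41l1 had 76 counts in core frontal and 32 in sham, 2.08 (Fisher's exact test, adjusted p = 0.0427). Grip1, a scaffold that binds AMPA-type glutamate receptors, had 25 counts (206 CPM) in core frontal and 4 (37.5 CPM) in sham for exons 17 to 19, a ratio of 5.49 (Fisher's exact test, adjusted p = 0.0425). Ppp1r9a, neurabin, binds actin in dendritic spines and brings a phosphatase there. Its exons 10 to 12 had 31 counts in core frontal and 6 in sham, 4.54 (Fisher's exact test, adjusted p = 0.0423). Exons 41 to 43 of Fryl, a relative of the Drosophila cell-shape protein furry, had 13 counts in core frontal and 0 in sham. With 3 counts in place of 0 the ratio was 3.80, with a lower interval limit of 2.68.

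Further higher circles came from hosts of unlike function. Exons 2 to 5 of Mvp, the major vault protein, had 13 counts in core frontal and 0 in sham. With 3 counts in place of 0 the ratio was 3.80, with a lower interval limit of 2.68. The Mvp circle passed the minimum of 10 counts only through core frontal, so its call is no result. Exons 2 to 8 of Dpy19l1, a C-mannosyltransferase relative, had 42 counts in core frontal and 10 in sham, and exons 2 to 3 of Ash1l, a histone methyltransferase, had 38 in core frontal and 10 in sham. Exons 2 to 4 of Fam53b had 79 in core frontal and 33 in sham, and exons 2 to 8 of Arel1, a ubiquitin ligase that opposes apoptosis, had 24 in core frontal and 4 in sham. The ratios of these 4 circles, from Dpy19l1 on, were 3.69, 3.34, 2.10 and 5.27 in that order.

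Of the lower circles, those of Usp9x and Nemf belong to the list of ubiquitin ligases and deubiquitinases. In this list 2 of 104 members were called lower and 1, of Arel1, higher. Over all members 0.458% were called lower and 0.289% higher. The summed counts of the list's hosts had a ratio of 1.00 [0.953–1.06]. The Usp9x circle passed the minimum count only through sham, so its call is no result. Rnf121, Kcmf1 and Shprh encode ubiquitin ligases outside that list, and they are described beside it by their roles alone. They were placed here after they were called. Circles of other ligases outside the list that were not called were not counted, so these circles mark no group. The lower circle of Rnf121, a membrane-bound RING ubiquitin ligase, is a single exon of 102 bases, exon 8 (chr7:102023312-102023413, minus strand), and was the shortest of the called circles. It is printed whole from GENCODE M21, with the first and last 15 bases, which meet at the back-splice, in capitals.
Rnf121 exon 8: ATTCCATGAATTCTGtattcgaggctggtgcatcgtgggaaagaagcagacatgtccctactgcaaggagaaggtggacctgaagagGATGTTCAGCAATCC
It had 26 counts (214 CPM) in core frontal and 66 (619 CPM) in sham, a ratio of 0.346 [0.211–0.552] (Fisher's exact test, adjusted p = 0.00135). Core occipital and penumbra gave 289 and 415 CPM, both between the other 2 libraries. Exons 2 to 3 of Kcmf1 (chr6:72858774-72861925), a ubiquitin ligase, had 12 counts in core frontal and 34 in sham, 0.310 [0.146–0.613] (Fisher's exact test, adjusted p = 0.0425). Exons 15 to 18 of Shprh (chr10:11178734-11185462), a ligase of DNA damage tolerance, had 16 in core frontal and 39 in sham, 0.360 [0.188–0.659] (Fisher's exact test, adjusted p = 0.0444). Exons 16 to 17 of Usp9x, a deubiquitinase, had 0 in core frontal and 11 in sham, and exons 23 to 25 of Nemf, which marks nascent chains on stalled ribosomes, had 3 in core frontal and 19 in sham.

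Lower circles of vesicle, channel and scaffold hosts were spread over several lists. They were 2 of 145 autophagy and trafficking members, 1 of 125 presynaptic, 1 of 81 channel and 1 of 111 postsynaptic members, while Myrip is in none of these lists. Over all members 0.458% were called lower, so such small counts mark no list. The circles of Itsn1, Nalcn and Vps13d passed the minimum of 10 counts only through sham, so their calls are no result. Exons 10 to 11 of Myrip (chr9:120432353-120441581), which links Rab proteins on secretory organelles to myosin, had 65 counts (535 CPM) in core frontal and 123 (1154 CPM) in sham, 0.464 [0.338–0.632] (Fisher's exact test, adjusted p = 0.000699). It had the most counts of the called circles. Exons 11 to 12 of Ambra1, a regulator of autophagy, had 1 count in core frontal and 22 in sham, 0.0399 [0.000967–0.247] (Fisher's exact test, adjusted p = 0.00135). Exons 2 to 3 of Magi2, a synaptic scaffold, had 10 in core frontal and 31 in sham, a ratio of 0.283. For exons 10 to 17 of Itsn1, a scaffold of endocytosis, and exons 8 to 13 of Nalcn, the sodium leak channel, core frontal had 0 counts and sham 11 each. For exons 66 to 67 of Vps13d, a lipid transfer protein, core frontal had 0 counts and sham 10.

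Further lower circles belonged to chromatin, signalling and other hosts. Exons 2 to 3 of Eed, a core subunit of Polycomb repressive complexes, had 0 counts in core frontal and 10 in sham, and 0 in core occipital and in penumbra. With 3 counts in place of 0 it was 3.80-fold lower, with an interval limit of 2.55-fold. The Eed circle passed the minimum of 10 counts only through sham, so its call is no result. Exons 19 to 20 of Kmt2a, a histone methyltransferase, had 38 in core frontal and 71 in sham, 0.470. Exons 4 to 6 of Rps6kc1, a relative of the ribosomal S6 kinases, had 44 in core frontal and 78 in sham, 0.495 [0.334–0.726], and with the GC trend removed its ratio was 0.502, past the limit of the rule. Dapk1, a calmodulin-regulated kinase of cell death, had 6 in core frontal and 28 in sham, and Adam10 exons 2 to 8, of a protease that sheds membrane proteins, had 2 in core frontal and 17 in sham. Ccdc30 had 10 in core frontal and 51 in sham, and Thap4 exons 3 to 5 had 0 in core frontal and 10 in sham. The Thap4 circle also passed the minimum of 10 counts only through sham, so its call is no result. The circles of Dapk1 and Ccdc30 have only 1 end on an annotated exon boundary. In core occipital and penumbra, Ccdc30 had 132 and 176 CPM and Dapk1 96.3 and 187 CPM, against 82.4 and 49.4 CPM in core frontal and 479 and 263 CPM in sham; all these libraries are set against the same sham library.

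Of the higher circles, 12 of 12 had both ends on exon boundaries, as had 17 of the 19 lower circles and 89.9% of all members. The spliced length of the higher circles had a median of 558 bases, and that of the 17 lower circles with a spliced length a median of 374, against 492 bases over all members. A start at exon 2, the commonest start of circRNAs, was seen in 6 of 12 higher circles (50%), 4 of 17 lower circles (23.5%) and 31.8% of members. These are descriptions of small sets.

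For most called circles the other circles of the host had no clear difference between the libraries. Over the 12 higher circles, 11 had other circles of the host with 10 or more counts in sum, and the ratio of that sum had an interval that included 1 for 9 of them. The exceptions were Ppp1r9a, whose other circles had 129 counts in core frontal and 75 in sham, 1.51 [1.13–2.03], and Dpy19l1, whose other circles lay below 1, with 74 in core frontal and 98 in sham, 0.663 [0.483–0.906]. Over the 19 lower circles, 14 had such a sum, and 13 intervals included 1. The other circles of Rps6kc1 had 572 counts in core frontal and 575 in sham, 0.873 [0.776–0.982]. The median ratio of the rest was 0.952 for the higher circles and 0.909 for the lower ones. An interval that includes 1 does not show that the rest was equal.

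**Figure D2:**
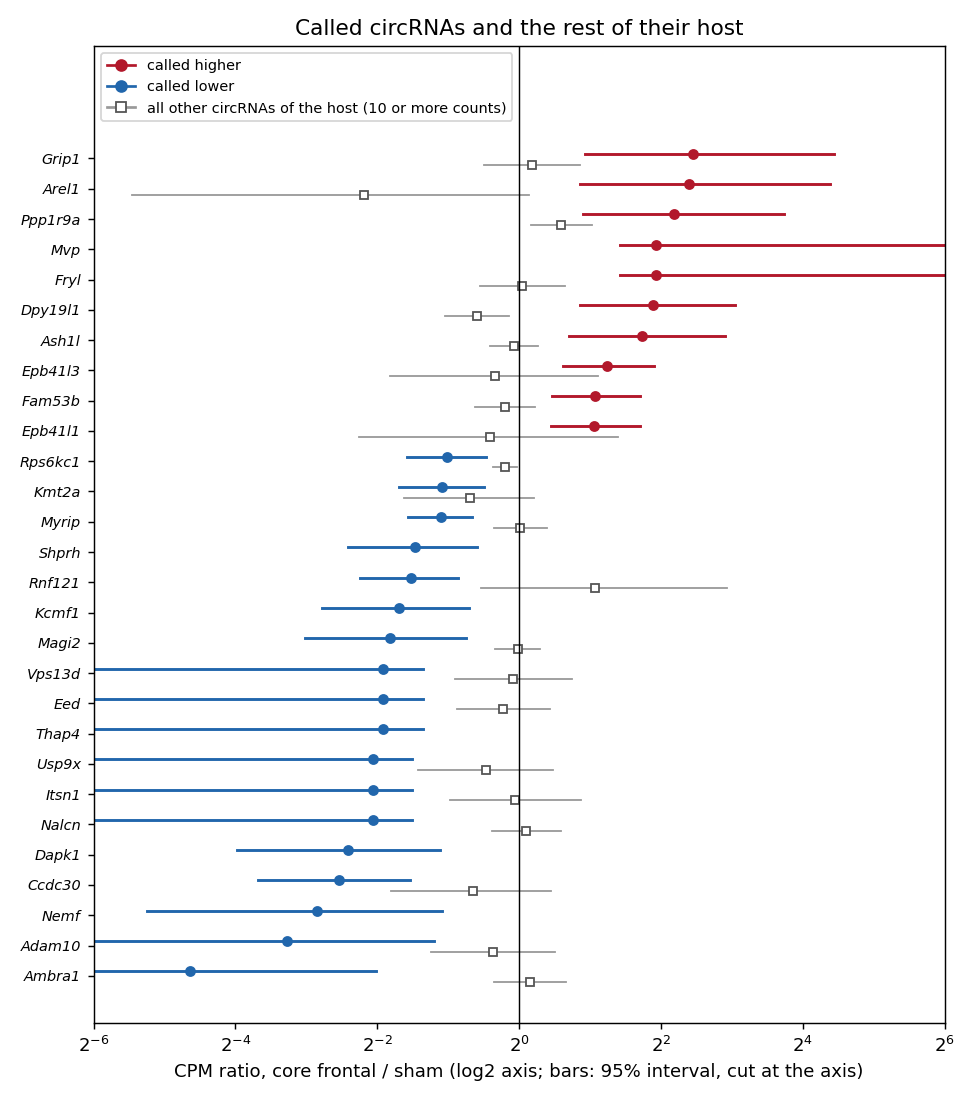
CPM ratio, core frontal over sham (log2 axis), of the called circles described here (filled, red higher and blue lower) and of all other circles of the same host in sum (open squares, drawn where they had 10 or more counts), with 95% intervals cut at the axis ends. Most open squares lie near a ratio of 1, apart from the called circle, and circles with 0 counts in a library are drawn at the ratio given by 3 counts.

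Circles that share a splice end with a called circle could be compared with it directly. The longer Ambra1 circles that end on the same exon 12 had 31 counts in core frontal and 28 in sham for exons 9 to 12, and 22 in core frontal and 13 in sham for exons 10 to 12, while exons 11 to 12 had 1 in core frontal and 22 in sham. For Rps6kc1, exons 3 to 6 had 439 counts in core frontal and 424 in sham, 0.909 [0.793–1.04]. In Dpy19l1, exons 2 to 8 had a ratio of 3.69 and exons 2 to 7, which differ by 1 exon at the end, had 56 counts in core frontal and 71 in sham, 0.692 [0.479–0.997]. In Ash1l, exon 2 alone had 2 counts in core frontal and 13 in sham and exons 2 to 5 had 6 in core frontal and 16 in sham, with ratios of 0.135 [0.0148–0.597] and 0.329 [0.105–0.886], both below 1 where exons 2 to 3 lay above. Fam53b exons 2 to 3 had 92 counts in core frontal and 93 in sham, 0.868 [0.644–1.17]. Ppp1r9a exons 8 to 12 lay above 1 like the called circle, with 67 counts in core frontal and 35 in sham, 1.68 [1.10–2.61].

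The share of a circle in its host's circRNA counts does not depend on how the libraries are scaled. It was tested by Fisher's exact test for 3365 circles in 1287 hosts, and 11 (0.327%) changed at an adjusted p under 0.05, 4 with a higher share in core frontal and 7 with a lower one; 428 had an unadjusted p under 0.05. The largest gain was in Usp6nl, a Rab GTPase-activating protein, whose exons 2 to 6 made up 93.3% of the host's counts in core frontal and 18.8% in sham, on 14 counts in core frontal and 3 in sham. Dpy19l1 exons 2 to 8 made up 36.2% in core frontal and 9.26% in sham (Fisher's exact test, adjusted p = 0.00265). Arpp21 exons 4 to 6, of a neuronal cAMP-regulated phosphoprotein, made up 44.6% in core frontal and 23.0% in sham, on 83 counts in core frontal and 37 in sham (Fisher's exact test, adjusted p = 0.0294). The host as a whole had 186 counts in core frontal and 161 in sham, a ratio of 1.01 [0.817–1.26]. Ank2 exons 5 to 9, of the spectrin adaptor ankyrin-B, made up 61.9% in core frontal and 7.41% in sham, on 13 counts in core frontal and 2 in sham.

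A lower share was found for Ambra1 exons 11 to 12, with 1.30% in core frontal and 26.8% in sham (Fisher's exact test, adjusted p = 0.00265), and for Myrip exons 10 to 11, with 32.5% in core frontal and 51.2% in sham. Nsd2 exons 3 to 4, of a histone methyltransferase, made up 39.7% in core frontal and 55.6% in sham, on 119 counts in core frontal and 150 in sham. Anks1b exons 5 to 8, of a postsynaptic density protein, made up 34.3% in core frontal and 45.6% in sham, on 227 counts in core frontal and 244 in sham. Dgkb exons 17 to 19, of a diacylglycerol kinase, made up 1.96% in core frontal and 22.0% in sham. The shares of Tank exons 3 to 4 were 9.09% in core frontal and 61.1% in sham, on 3 counts in core frontal and 11 in sham. Epb41l3 exons 4 to 10 made up 1.11% in core frontal and 22.5% in sham, on 1 counts in core frontal and 9 in sham, while exons 2 to 3 of the same host were the circle called higher.

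**Figure D3:**
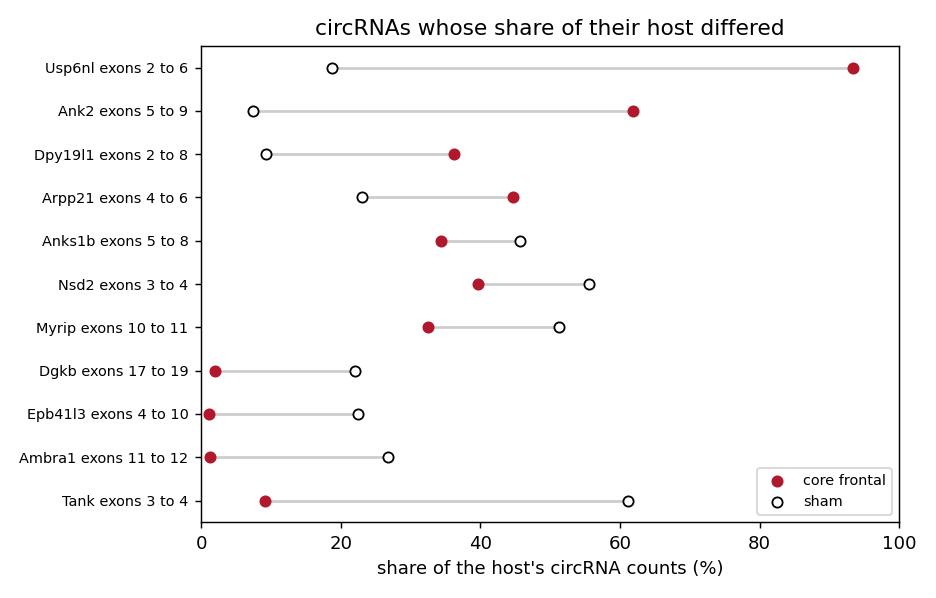
The percent of the host's circRNA counts held by each of the 11 circles whose share changed, in core frontal (filled) and in sham (open). The shares of 4 circles were higher in core frontal and those of 7 were lower, with the widest gaps in circles of few counts.

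Circles of a host could also differ in opposite directions. Of the 838 hosts with 2 or more members, 27 had members whose intervals excluded 1 in both directions. Among them Ash1l, Dpy19l1, Epb41l3 and Magi2 held a called circle. Over all 4152 members the interval excluded 1 for 264 higher and 253 lower, and a host held up to 23 members. How many such hosts these shares alone would give was not computed, so the count of 27 is no result. The circles named next were not called. In Anks1b the interval excluded 1 for exons 5 to 8 with 0.817 [0.679–0.982], and for exons 3 to 8, which end on the same exon, with 41 counts in core frontal and 14 in sham, 2.57 [1.37–5.11]. In Cntn5, a neuronal adhesion protein, exons 4 to 7 had 4 counts in core frontal and 19 in sham, and exons 4 to 6 had 19 in core frontal and 4 in sham. In Cpeb3, an RNA-binding regulator of synaptic translation, exons 6 to 10 had 5 in core frontal and 17 in sham, and exons 6 to 7 had 17 in core frontal and 4 in sham. In each of these the longer and the shorter circle start at the same exon or end at the same exon.

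Summed over all circles of a host, 16 of 2634 hosts (0.607%) were called, 3 higher and 13 lower. The higher hosts were Akap9, a centrosome and Golgi scaffold for protein kinase A, with 26 counts in core frontal and 5 in sham, 4.56 [1.72–15.2], Mvp, and Zswim5, with 13 in core frontal and 0 in sham. The lower ones not named so far included Rab2a, a small GTPase of the Golgi, with 2 counts in core frontal and 18 in sham, 0.0975 [0.0110–0.407]. Mark1, a microtubule affinity kinase, had 8 in core frontal and 28 in sham, 0.251. Fancl, the ubiquitin ligase of the Fanconi anemia pathway, had 34 in core frontal and 63 in sham, 0.474. Wdr49 had 5 in core frontal and 22 in sham, Slc4a1ap 0 in core frontal and 11 in sham, Gm34237 17 in core frontal and 47 in sham, and Gm7854 3 in core frontal and 19 in sham. Ccdc30, Dapk1, Nemf, Rnf121, Shprh and Thap4 completed the 13. Mvp and Zswim5 had 0 counts in sham, and Slc4a1ap and Thap4 had 0 in core frontal. These hosts passed the minimum count only through the other library, so their calls are no result. Mvp and Dapk1 had no further circle, so their host calls repeat the circle calls given above.

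At any ratio, 33 hosts (1.25%) had an adjusted p under 0.05 by Fisher's exact test, and several of these had many circles and moderate ratios. Lrp1b, a giant receptor of the LDL receptor family, had 296 counts in core frontal and 160 in sham over 51 circles, of which 12 were members, 1.62 [1.34–1.98] (Fisher's exact test, adjusted p = 0.00075). Map3k5, the stress kinase ASK1, had 114 in core frontal and 57 in sham, 1.76 [1.27–2.46]. Ppp1r9a had 160 in core frontal and 81 in sham, 1.73, and Atad2b, a bromodomain protein, had 103 in core frontal and 49 in sham, 1.85. Fat3, a giant cadherin, Slc8a1, the sodium-calcium exchanger, and Tcf20 had 1.28, 1.26 and 1.34. In the other direction, Hnrnpu, a nuclear RNA-binding protein, had 256 counts in core frontal and 319 in sham, 0.704 [0.595–0.833] (Fisher's exact test, adjusted p = 0.00912). Dlgap1, a scaffold of the postsynaptic density, had 300 in core frontal and 368 in sham, 0.716, and Dpp10, a subunit of potassium channels, had 135 in core frontal and 176 in sham, 0.673. Kmt2a had 57 in core frontal and 98 in sham, 0.511 [0.362–0.715].

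Some members were seen in only 1 of the 2 libraries. Core frontal alone had 24, with 10 to 13 counts each, and sham alone had 6, with 10 to 11. They passed the minimum of 10 counts only through the library that had them, so how many were called follows from that minimum and the depths and is no result. Among those of core frontal alone and not called, exons 5 to 8 of Fkbp5, a glucocorticoid-induced co-chaperone, had 12 counts in core frontal and 0 in sham. With 3 counts in place of 0 the ratio was 3.51, with a lower interval limit of 2.44 (Fisher's exact test, adjusted p = 0.0533). Exons 4 to 8 of Srcap, a chromatin remodeler, had the same counts. Exons 4 to 7 of Slc2a13, a myo-inositol transporter, had 11 in core frontal and 0 in sham. The floor of 3 counts put in place of 0 is 24.7 CPM in core frontal and 28.2 CPM in sham, and the 95% exact Poisson interval of a count of 0 reaches 30.4 CPM in core frontal and 34.6 CPM in sham.

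Longer circles took a larger part of the counts in core frontal than in sham. Circles with a spliced length of 1200 or more bases held 11.0% of counts in core frontal and 9.67% in sham, a ratio of shares of 1.13 [1.11–1.16]. Those of 600 to under 1200 bases held 24.3% in core frontal and 23.2% in sham, 1.04 [1.03–1.06]. Those of 300 to under 600 bases held 36.5% in core frontal and 37.1% in sham, 0.984 [0.971–0.997]. Circles under 300 bases held 16.7% in core frontal and 18.5% in sham, 0.904 [0.886–0.921]. The mean spliced length per count was 713 bases in core frontal and 671 in sham. Over members, the median log2 ratio was 0.23 for the 427 circles of 1200 or more bases and -0.08 for the 772 under 300 bases. Calls were few in every class: 2 higher and 0 lower at 1200 or more bases, and 0 higher and 4 lower under 300. Core occipital and penumbra had 11.7% and 10.8% of counts in the longest class and mean lengths of 732 and 700 bases.

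Exon number and genomic span gave smaller differences. Circles of 7 or more exons held 14.0% of counts in core frontal and 12.9% in sham, 1.08 [1.06–1.11], and those of 2 to 3 exons held 35.4% in core frontal and 37.4% in sham, 0.946 [0.933–0.959]. Single-exon circles held 7.58% in core frontal and 7.26% in sham, 1.04 [1.01–1.08]. Circles with a span under 1 kb had a ratio of shares of 0.933 [0.908–0.959] and those of 100 kb or more had 1.04 [1.00–1.09]; of the 142 members in the widest class 0 were called by Fisher's exact test. Within hosts the length difference was weaker. In 754 hosts the pair of most abundant members could be compared, and the longer one had the higher ratio in 374 (49.6%). In the 234 pairs in which it was at least 2-fold longer, it had the higher ratio in 136 (58.1%). The longer circles of all pairs held 51.2% [50.8–51.6] of the pairs' counts in core frontal and 50.4% [49.9–50.9] in sham. The exact intervals of these shares do not cover differences between pools.

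**Figure D4:**
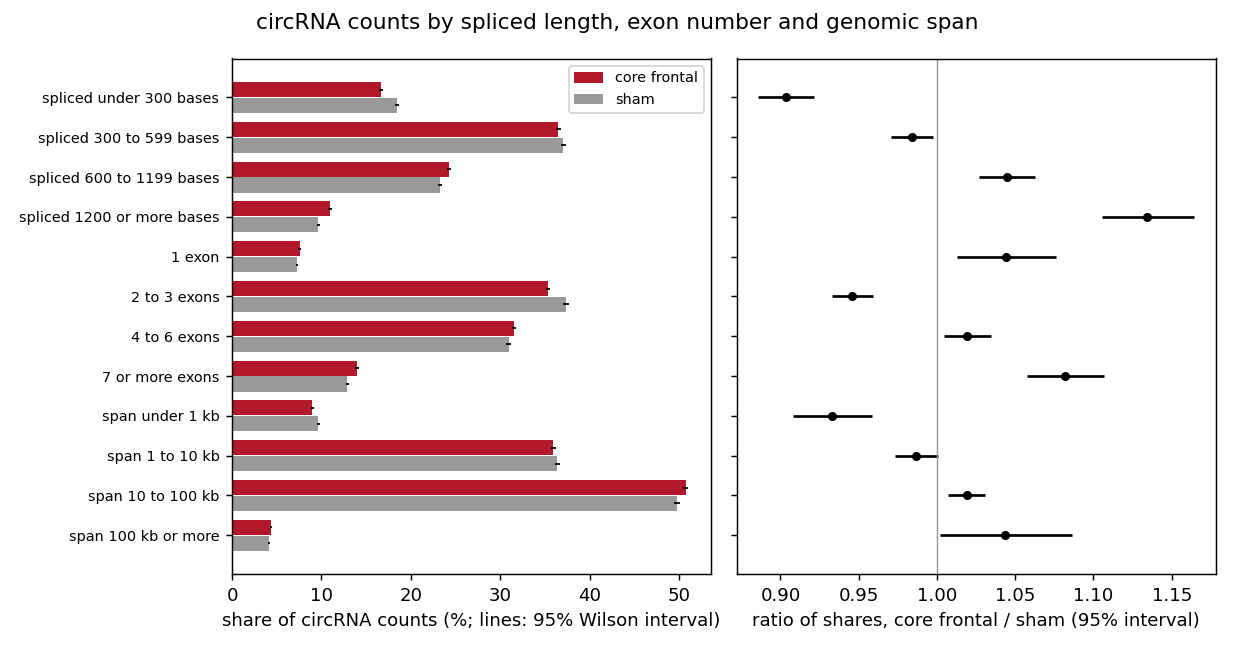
Left, percent of circRNA counts in each class of spliced length, exon number and genomic span in core frontal (red) and sham (grey), with 95% Wilson intervals; right, the ratio of the shares, core frontal over sham, with its 95% interval. The ratio of shares is 0.904 for circles under 300 bases and 1.13 for those of 1200 or more, and the intervals cover counting error only.

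Hosts grouped by function showed ratios of summed shares close to 1 in most groups, and the share of called members is read against the 0.747% of all members. Of the calls counted in these groups, Fryl, Itsn1, Nalcn, Eed, Usp9x and Vps13d had 0 counts in 1 library. They passed the minimum of 10 counts only through the other library, so how many of them were called is no result. In the synaptic groups, hosts of postsynaptic receptors and scaffolds had 3101 counts in core frontal and 2722 in sham, a ratio of shares of 1.00 [0.950–1.05]. Of the 111 members, Grip1 and Ppp1r9a were called higher and Magi2 lower. Hosts of the presynaptic active zone and vesicle cycle had a ratio of 0.996 [0.954–1.04], and 1 of 125 members, Itsn1, was called lower. Voltage-gated and leak channel hosts had 1.05 [0.989–1.11], with Nalcn lower among 81 members. The most abundant members of these 3 groups had similar levels. Exons 2 to 5 of Homer1, the postsynaptic scaffold, had 233 counts in core frontal and 223 in sham, 0.917 [0.760–1.11]. The Rims1 circle, of the active zone, had 571 in core frontal and 503 in sham, 0.996 [0.882–1.13], and exon 3 of Kcnj6, a potassium channel, had 244 in core frontal and 243 in sham.

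Of the 13 functional groups, calcium hosts and membrane-skeleton hosts had summed ratios above 1 whose intervals excluded 1. Hosts of calcium pumps, exchangers and release channels had 1449 counts in core frontal and 1065 in sham, 1.19 [1.10–1.29], and 1.14 [1.02–1.27] without Slc8a1. The median log2 ratio of their 25 members was 0.39, against 0.03 over all members, and 0 were called by Fisher's exact test. By the interval with a ratio of at least 2 or at most 0.5, 1 of the 25 was higher and 0 lower (4%), against 9.8% of all members. Exon 2 of Slc8a1 had 628 counts in core frontal and 420 in sham, 1.31 [1.16–1.49] (Fisher's exact test, adjusted p = 0.00813), under the 2-fold rule. A calcium pump of the plasma membrane, Atp2b2, had for exons 11 to 13 69 in core frontal and 34 in sham, 1.78 [1.17–2.77] (Fisher's exact test, adjusted p = 0.131). Without Slc8a1 the calcium hosts held 721 counts in core frontal and 556 in sham. Of these, all circles of the release channel Ryr2 held 365 in core frontal and 255 in sham, and those of Atp2b2 79 and 44. The ratio without these hosts was not computed, so the excess is not shown for the remaining calcium hosts. Hosts of the actin and membrane skeleton had 1518 in core frontal and 1092 in sham, 1.22 [1.13–1.32], and 1.21 [1.11–1.32] without Fmn1. Of their 58 members Epb41l1, Epb41l3 and Fryl were called higher and 0 lower by Fisher's exact test, and the median log2 ratio was 0.32. The Fryl circle had 0 counts in sham and passed the minimum only through core frontal. By the interval alone, with a ratio of at least 2 or at most 0.5, 8 of the 58 were higher and 6 lower (24.1%), against 9.8% of all members. On the lower side, exons 8 to 15 of Fmn1, a formin, had 1 count in core frontal and 9 in sham.

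The other groups did not share a direction. Hosts of histone methylation and Polycomb had 0.975 [0.913–1.04], with Ash1l higher and Kmt2a and Eed lower among 56 members. Chromatin remodelers and acetyltransferases had 0.961 [0.905–1.02] and 0 calls by Fisher's exact test among 62 members. Ubiquitin ligases and deubiquitinases had 1.00 [0.953–1.06], with Arel1 higher and Usp9x and Nemf lower among 104. Autophagy and trafficking hosts had 1.02 [0.970–1.07], with Ambra1 and Vps13d lower among 145, and stress and death regulators had 1.02 [0.957–1.10], with Dapk1 lower among 56. RNA-binding and splicing factors had 0.934 [0.875–0.998], and 0.985 [0.917–1.06] without Hnrnpu. Exons 4 to 6 of Hnrnpu had 229 counts in core frontal and 306 in sham, 0.657 [0.551–0.782] (Fisher's exact test, adjusted p = 0.00135). Mitochondrial and energy hosts had 0.916 [0.814–1.03] in sum but a median log2 ratio of 0.40 over 18 members, so sum and median differ in sign. Without Acaca, acetyl-CoA carboxylase, with 139 counts in core frontal and 168 in sham, the summed ratio was 1.00 [0.870–1.15]. Hypoxia and immediate early hosts, which give few circles, had 274 counts in core frontal and 214 in sham, 1.12 [0.936–1.35], and 1.31 [1.04–1.66] without Arnt2. Among them exons 7 to 9 of Ntrk2, the BDNF receptor, had 18 in core frontal and 2 in sham, 7.90 [1.89–70.2] (Fisher's exact test, adjusted p = 0.0654). Without Arnt2 the hypoxia and immediate early hosts had 182 counts in core frontal and 122 in sham. All circles of Ntrk2 held 90 of these in core frontal and 47 in sham, and the ratio without Ntrk2 was not computed.

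**Figure D5:**
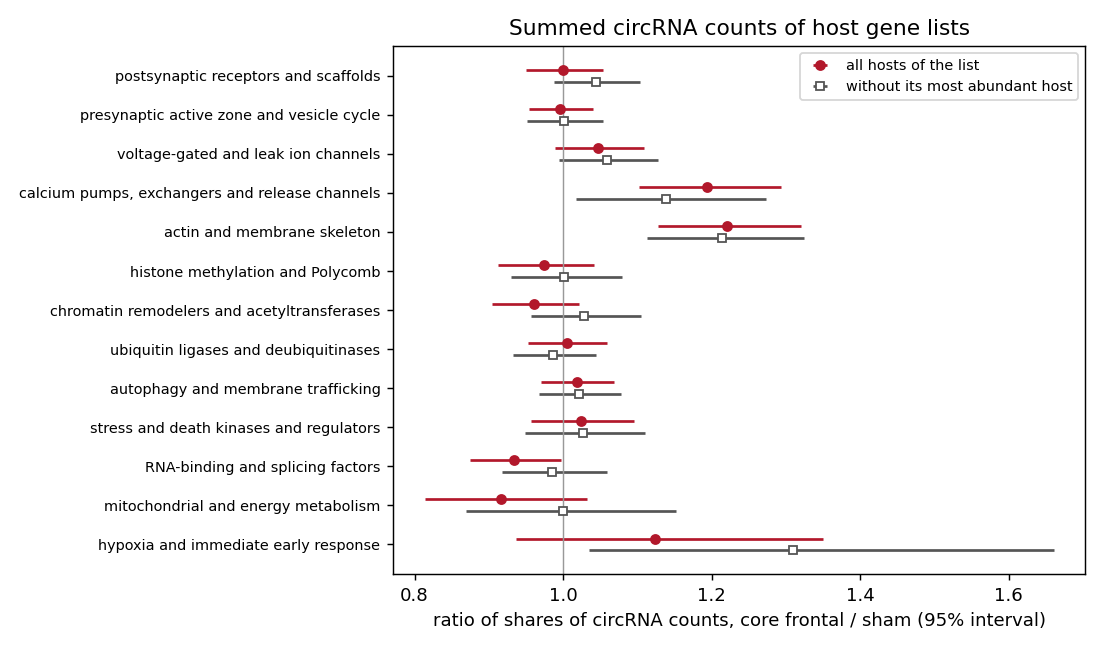
Ratio of the shares of circRNA counts, core frontal over sham, summed over the hosts of each functional group (filled, with 95% interval) and without the group's most abundant host (open). Calcium hosts (1.19) and actin and membrane-skeleton hosts (1.22) lie above 1 with and without that host, and the interval of RNA-binding factors lies below 1 only with it.

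Circles from hosts that mark cell types describe the tissue only in part, because a circle's level is not that of the host's linear RNA. Cortical excitatory neuron hosts had 305 counts in core frontal and 246 in sham, 1.09 [0.917–1.29], over 11 members. Striatal neuron hosts had 158 in core frontal and 117 in sham, 1.19 [0.927–1.52], and without Foxp1 1.57 [1.11–2.25]. Interneuron hosts had 50 in core frontal and 44 in sham. Among glia, astrocyte hosts had 62 counts in core frontal and 25 in sham, 2.18 [1.35–3.62], and 1.92 [1.03–3.72] without Slc4a4. Only 2 of their circles were members, of which 1 had a ratio above 1, and 0 were called by Fisher's exact test. Oligodendrocyte hosts had 79 in core frontal and 73 in sham, endothelial hosts 32 in core frontal and 31 in sham, and microglial hosts 0 in core frontal and 1 in sham. Ependymal and choroid plexus hosts had 272 in core frontal and 238 in sham, 1.00 [0.840–1.20], and 0.684 [0.515–0.907] without Cfap54, a gene of motile cilia. The value below 1 rests on Ccdc30, with 23 counts in core frontal and 69 in sham. Without both hosts the ratio was 1.24 [0.845–1.82], and without Ccdc30 alone 1.29 [1.06–1.58]. The part of cell makeup in the differences above was not tested.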

How the data were processed

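The deposited count table holds the authors' whole-number read counts per circRNA, without normalization; the authors' FPKM table was not used. The submitters' processing notes name TopHat2 2.0.10, Bowtie and mm9; the circRNA caller is not given in the sources used here. The coordinates fit GRCm38: 89.1% of starts lay on GENCODE M21 exon boundaries, against 0.192% when moved by 1 base. Hosts, exons and spliced sequences came from GENCODE M21; the table gives no strand, and antisense genes that overlap were not separated. Counts were scaled to each library's total (121393 in core frontal, 106558 in sham). Fisher's exact test and the exact and Wilson intervals used scipy 1.17.1 and statsmodels 0.14.6. Alternatives used edgeR 4.0.16 and DESeq2 1.42.0 size factors, a GC trend, other filters and totals. The test was also run on simulated counts that varied by counting error only, which leaves differences between pools uncovered. Some called circles enter the counts but are not reported here by name. The members and host groups were chosen with earlier results of these data known. Circles are named where they were called, changed their share of the host, were the top member of a group or the members of a group farthest from 1, or neighbour a called circle; a few from hosts with opposite directions or with 0 counts in a library were chosen after values were seen.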

Additional observations from a re-analysis of the deposited data

How the results depend on the processing

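Of the 31 called circles, 24 stayed called under TMM factors, DESeq2 size factors, totals without the 10 most abundant circles and removal of the GC trend. Those lost included Epb41l1 with DESeq2 size factors (Fisher's exact test, adjusted p = 0.0515), Thap4, Arel1, Vps13d and Eed without the most abundant circles (adjusted p by Fisher's exact test 0.0506 each), and Rps6kc1 with the GC trend removed. Without the filter on counts, Fisher's exact test called 0 higher and 4 lower, since many more circles were tested; 589 members had an unadjusted p under 0.05. With an assumed coefficient of variation of 0.1 edgeR's exact test called 0 higher and 2 lower, and at 0.2 it called 0 higher and 0 lower, with 273 at an unadjusted p under 0.05. Limited to hosts with 30 or more counts, 8 hosts were called higher, where fewer hosts were tested. The ratio of the ependymal and choroid plexus hosts without Ccdc30 was computed after seeing the data. Leaving out a replicate was not possible, and no paired analysis was possible because each group has 1 library. At 10 to 19 counts the depth shows only large ratios.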
